A study of Mus musculus with 6 samples.

Results

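The genes described here are 10 heat shock genes: the inducible HSP70 genes Hspa1a and Hspa1b, the HSP110 gene Hsph1, the constitutive HSP70 gene Hspa8, the cytosolic HSP90 gene Hsp90aa1, the J-domain genes Dnajb1 and Dnaja1, the mitochondrial chaperonin genes Hspd1 and Hspe1, and the HSP70 co-chaperone gene Bag3. They were chosen by symbol, and they are 10 of the 32285 features counted in every library. Single-cell RNA sequencing had been run on T cells that were sorted from mouse kidneys as live CD45+ TCRβ+ cells and split into CD4+, CD8+ and double negative (DN) cells. The kidneys were normal (control) or had gone through ischemia-reperfusion (IR), and each of the 6 groups had 1 library. All mice were wild-type C57BL/6J males aged 7 to 8 weeks, and IR mice had a clamp on both renal pedicles for 30 min under pentobarbital, with creatinine measured at baseline and 24 h later. The controls are labelled normal and not sham, so surgery and ischemia cannot be told apart, and how many mice were pooled into a library and when T cells were taken are not given in the sources used here. All kidneys were digested with collagenase D for 30 min at 37 °C before the sort.

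Heat shock proteins are chaperones that bind unfolded or newly made proteins and help them to fold. HSP70 proteins work in a cycle in which J-domain proteins such as Dnajb1 and Dnaja1 deliver the client and drive ATP hydrolysis, while exchange factors such as Hsph1 and Bag3 release it. The inducible members are switched on by the heat shock factor HSF1, which binds repeats of the pentamer GAA and its inverse TTC in promoters, whereas Hspa8 is made in most cells without stress.

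After filtering, 47928 of 54039 barcodes were kept, between 4068 and 10104 per library. Kept cells had a median of 7034 (CD4), 6628 (CD8) and 8362 (DN) UMIs in the control libraries, against 2354 (CD4), 1758 (CD8) and 1449.5 (DN) UMIs in the IR libraries. The mitochondrial share of UMIs was 1.75% to 2.33% in control and 0.926% to 1.13% in IR libraries, and the ribosomal protein share was 16.5% to 22.8% in control and 27.4% to 42.9% in IR libraries. The control files were written by Cell Ranger 5.0.1 and the IR files by Cell Ranger 6.0.1. Condition, depth, RNA composition and software version therefore moved together and cannot be told apart. T cell markers were present in every library, the lowest of them Cd2 at 349 to 526 CPM, and Cd4, Cd8a and Cd8b1 together reached no more than 2.94 CPM in a DN library. A total of 319 barcode sequences among kept cells occurred in more than 1 library, between 7 and 41 for a pair of libraries.

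Levels below are CPM, that is, shares of the UMIs summed over the kept cells of a library and scaled to 1000000 UMIs, with mitochondrial genes, ribosomal protein genes and Malat1 left out of the total. Values in a row are always in the order CD4, CD8 and DN. The assay counts RNA molecules from their 3' ends, so a level is compared within a gene and not between genes. Brackets hold exact 95% intervals, which cover counting error only. With 1 library per group no difference within a subset has a replicate check, and no test was run. Cells of a library were not treated as replicates, and neither were the 3 subsets of a condition, which are different cells and may come from the same kidneys, so a test of IR against control over the subsets was not run. The limit for a difference was set at 2-fold, for genes with 10 CPM or more in the higher library. In bulk sums of this kind, fewer cells that express a gene and less RNA per cell cannot be told apart.

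Hspa1a (ENSMUSG00000091971, chr17:34969190-34972156, minus strand) and Hspa1b (ENSMUSG00000090877, chr17:34956436-34959238, minus strand) are neighbouring genes of 1 exon each, by GENCODE M21 on GRCm38 (mm10). Their RefSeq promoters (GRCm38.p6, chr17:34972157-34972406 and chr17:34959239-34959488, the 250 bases before the transcript start) differed at 3 of 250 positions, an identity of 98.8%. They are shown because the results turn on this pair of genes, and capitals mark 2 facing pentamers of the heat shock element (GAANNTTC or TTCNNGAA, each its own reverse complement, so both strands were covered).
Hspa1a promoter: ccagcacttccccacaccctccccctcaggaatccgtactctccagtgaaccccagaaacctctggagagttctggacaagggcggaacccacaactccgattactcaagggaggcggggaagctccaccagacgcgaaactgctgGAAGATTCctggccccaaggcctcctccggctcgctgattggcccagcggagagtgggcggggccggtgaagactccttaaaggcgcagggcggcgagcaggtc
Hspa1b promoter: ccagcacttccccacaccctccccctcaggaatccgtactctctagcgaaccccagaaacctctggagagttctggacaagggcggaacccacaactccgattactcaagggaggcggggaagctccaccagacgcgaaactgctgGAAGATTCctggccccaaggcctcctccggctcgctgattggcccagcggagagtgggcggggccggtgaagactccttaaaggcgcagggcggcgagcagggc

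The same search was made in the other promoters. The table of RefSeq promoters held 8 of the 10 genes, and 6 of these 8 had such a pair of pentamers in the 250 bases before a transcript start (Hspa1a, Hspa1b, Hsph1, Hspd1, Hspe1 and Dnaja1), against 3932 of 27025 genes (14.5%) in the table. A run of 3 alternating pentamers (GAANNTTCNNGAA or TTCNNGAANNTTC, which contain the shorter motif) was in 2 of 8, Hspd1 and Hspe1, against 139 of 27025 genes (0.514%). Its matches overlap in a single stretch of 18 bases with 4 pentamers on chromosome 1 that the head-to-head pair Hspd1 and Hspe1 share, read here from the Hspe1 strand (chr1:55088053-55088082, with 6 flanking bases on each side). With the same flanks, the pair of Hsph1 is printed from chr5:149636356-149636375 and that of Dnaja1 from chr4:40722338-40722357. A match is a description of the letters and no match, as for Dnajb1 and Bag3, says only that these letters are not in the window searched.
Hspe1 and Hspd1: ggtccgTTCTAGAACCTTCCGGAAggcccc
Hsph1: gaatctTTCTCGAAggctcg
Dnaja1: cctctaGAAAATTCtacgag

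The 2 inducible HSP70 genes were far lower in the IR libraries of all 3 subsets. Hspa1a stood at 1151 (CD4), 965 (CD8) and 818 (DN) CPM in the control libraries and at 145, 77.8 and 77.4 CPM in the IR libraries. Hspa1b stood at 1785, 1771 and 1624 CPM in control and at 232, 124 and 137 CPM in the IR libraries. Every control library lay above every IR library for both genes. The log2 ratio of IR over control for Hspa1a was -2.99 (-3.05 to -2.93) in CD4, -3.63 (-3.76 to -3.51) in CD8 and -3.40 (-3.56 to -3.25) in DN cells. For Hspa1b it was -2.94 (-2.99 to -2.89) in CD4, -3.84 (-3.94 to -3.74) in CD8 and -3.57 (-3.68 to -3.45) in DN cells, a fold of 7.68, 14.3 and 11.8 lower. The ratio was thus nearer to 0 in CD4 than in CD8 and DN cells, and the intervals of CD4 did not meet those of the other subsets for either gene. Near-identical copies can share reads, but no 91-base stretch of the last 500 bases of either transcript occurs in the other transcript, while 5.93% of the stretches of Hspa1a and 17.7% of those of Hspa1b in the last 1000 bases do. Summed as 1 feature, the pair stood at 2936, 2736 and 2442 CPM in control and at 377, 202 and 214 CPM in IR libraries.

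The exchange factors Hsph1 and Bag3 stood lower in IR by well over 2-fold in each subset. Hsph1 (ENSMUSG00000029657, chr5:149614287-149636376, minus strand), the HSP110 protein that reloads HSP70 with ATP and holds unfolded clients, stood at 456, 403 and 374 CPM in control libraries. In IR it stood at 62.2, 66.4 and 52.5 CPM, a log2 ratio of -2.88 (-2.97 to -2.78), -2.60 (-2.74 to -2.46) and -2.83 (-3.03 to -2.65). The 3 ratios of Hsph1 lay within 0.275 of each other, in contrast to the 0.898 spanned by those of Hspa1b. Bag3 (ENSMUSG00000030847, chr7:128523616-128546981, plus strand), which links HSP70 and its clients to autophagy, stood at 116, 99.0 and 33.6 CPM in control libraries and at 13.6, 6.17 and 4.52 CPM in IR. Its log2 ratios were -3.09 (-3.30 to -2.89), -4.00 (-4.49 to -3.56) and -2.89 (-3.61 to -2.26). The wide intervals of Bag3 come from few counts, since the IR CD8 and IR DN libraries held 40 and 20 Bag3 UMIs. In DN cells the value of Bag3 also turned on which cells were kept, with a log2 ratio of -1.74 without cell filters and -3.72 with shared barcodes left out.

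**Figure D1:**
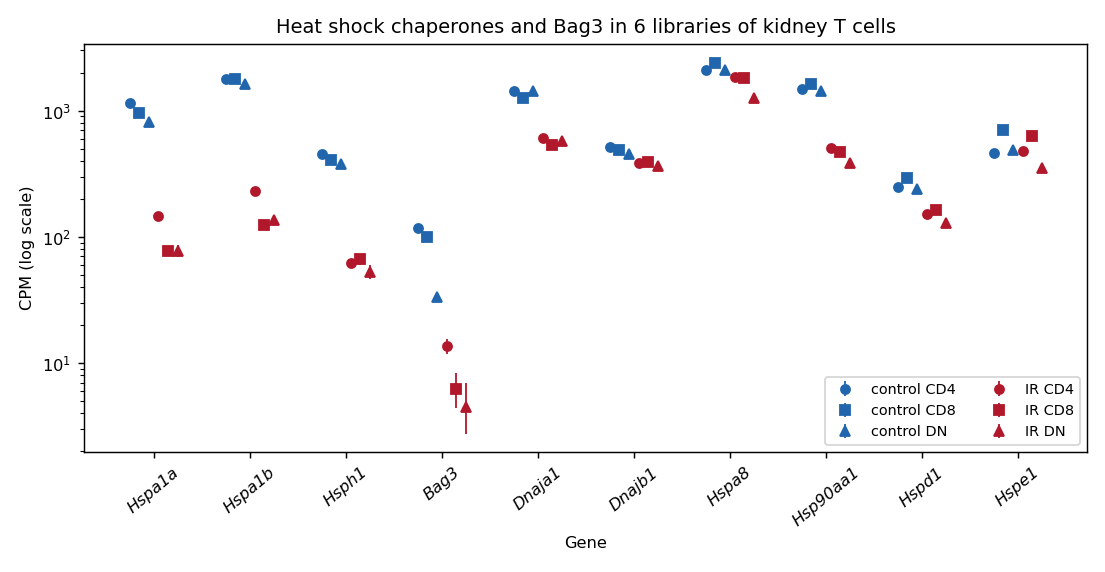
Level of each of the 10 genes in CPM (log axis) in the 6 libraries, control in blue and IR in red, with circles for CD4, squares for CD8 and triangles for DN cells and bars for exact 95% Poisson intervals, mostly smaller than the symbols. The red symbols of Hspa1a, Hspa1b, Hsph1 and Bag3 lie far below the blue ones, those of Dnajb1, Hspa8 and Hspe1 lie close to them, and Bag3 in control DN cells (33.6 CPM) stands below control CD4 and CD8.

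Hsp90aa1 (ENSMUSG00000021270, chr12:110690605-110702728, minus strand), the stress-inducible cytosolic HSP90, stood at 1485, 1634 and 1430 CPM in control libraries and at 503, 467 and 387 CPM in IR. It was 2.95-fold, 3.50-fold and 3.70-fold lower in IR, a smaller difference than that of the inducible HSP70 genes in each subset. Of the J-domain genes, Dnaja1 (ENSMUSG00000028410, chr4:40722150-40737149, plus strand) stood at 1420, 1269 and 1430 CPM in control and at 607, 534 and 571 CPM in IR, a log2 ratio of -1.22, -1.25 and -1.32 whose intervals all lay below -1.19. Dnaja1 overlaps Smu1 on the other strand, and beyond the use of default settings nothing is stated on strand in counting.

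Dnajb1 (ENSMUSG00000005483, chr8:83608193-83612653, plus strand) encodes the main stress-inducible J-domain partner of HSP70, yet its level differed little. It stood at 513, 483 and 454 CPM in control and at 384, 390 and 366 CPM in IR. Its log2 ratios were -0.42 (-0.46 to -0.38), -0.31 (-0.37 to -0.25) and -0.31 (-0.38 to -0.24), under 2-fold in every subset and within 0.108 of each other.

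The constitutive HSP70 and the mitochondrial chaperonins also stayed under the 2-fold limit. Hspa8 (ENSMUSG00000015656, chr9:40800984-40810087, plus strand) stood at 2084, 2389 and 2084 CPM in control and at 1836, 1804 and 1260 CPM in IR, a log2 ratio of -0.18 (-0.20 to -0.16) in CD4, -0.41 (-0.43 to -0.38) in CD8 and -0.73 (-0.77 to -0.69) in DN cells. Hspa8 thus had its lowest ratio in DN cells, whereas Hspa1a and Hspa1b had theirs in CD8. For Hspa1a, however, the intervals of CD8 (-3.76 to -3.51) and DN (-3.56 to -3.25) overlapped. Hspd1 (ENSMUSG00000025980, chr1:55077835-55088243, minus strand), the barrel of the mitochondrial chaperonin, stood at 247, 294 and 241 CPM in control and at 151, 164 and 129 CPM in IR, 1.64-fold, 1.80-fold and 1.86-fold lower. Hspe1 (ENSMUSG00000073676, chr1:55088132-55091307, plus strand), the lid of that barrel, stood at 464, 698 and 488 CPM in control and at 475, 632 and 351 CPM in IR. Its log2 ratio was 0.03 (-0.00349 to 0.07) in CD4, an interval that includes 0, and -0.14 (-0.19 to -0.10) in CD8 and -0.48 (-0.55 to -0.40) in DN cells. The 2 genes of the chaperonin overlap at their starts on opposite strands.

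Counted over the 10 genes, 6 were at least 2-fold lower in IR than in control CD4 cells, 6 in CD8 and 6 in DN cells, and 0 were higher in any subset, where 7.80%, 8.24% and 8.85% of all genes tested were higher. The lower genes were the same 6 genes each time (Hspa1a, Hspa1b, Hsph1, Hsp90aa1, Dnaja1 and Bag3). Of all genes at 10 CPM or more, 15.0% in CD4, 17.2% in CD8 and 10.6% in DN cells were at least 2-fold lower, and 639 of 9705 (6.58%) were lower in all 3 subsets. All 10 genes passed the minimum of 10 CPM in each of these comparisons, and Bag3 in CD8 and DN cells passed it through the control library alone. Over the 10 genes the median log2 ratio was -1.39, -1.53 and -1.61, beside -0.26, -0.37 and -0.25 over all genes tested. These are the counts for genes that had been chosen with earlier results known, and nothing particular to the list was tested.

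**Figure D2:**
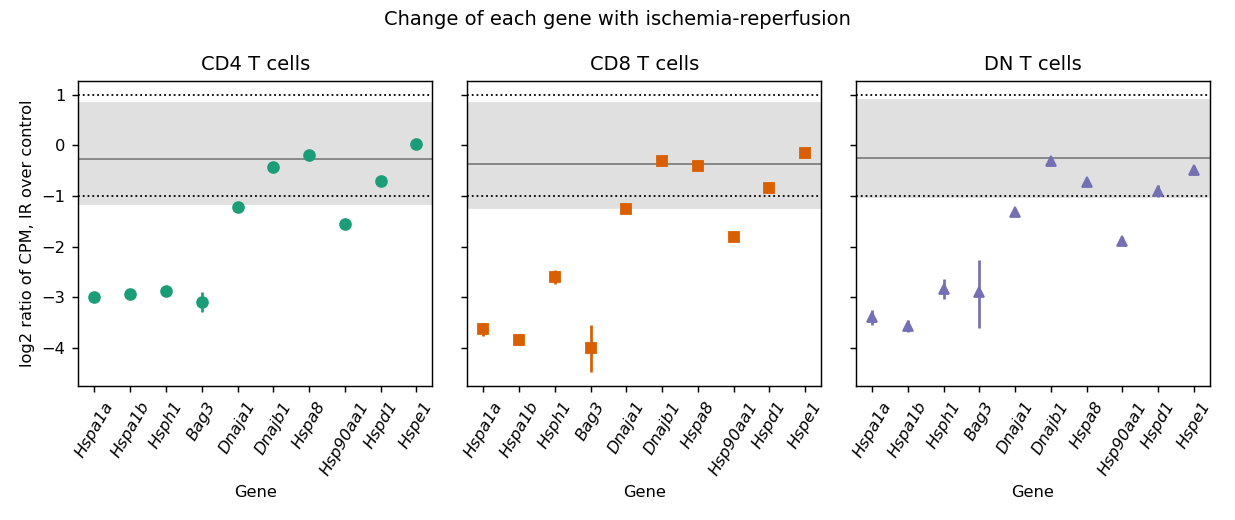
Log2 ratio of CPM, IR over control, for each of the 10 genes in CD4, CD8 and DN cells, with exact 95% intervals for counting error. The grey band spans the 10th to 90th percentile of all genes tested, the grey line is their median (-0.26, -0.37 and -0.25) and dotted lines mark 2-fold. Hspa1a, Hspa1b, Hsph1 and Bag3 lie lowest in each panel, Hsph1 in CD8 (-2.60) being the nearest of them to 0, and Dnajb1, Hspa8 and Hspe1 lie inside the band.

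Summed over the 10 genes, the level was 9722, 10005 and 8978 CPM in control libraries and 4410, 4264 and 3335 CPM in IR. The sum was 2.20-fold, 2.35-fold and 2.69-fold lower in IR, on the log2 scale -1.14 (-1.15 to -1.13), -1.23 (-1.25 to -1.21) and -1.43 (-1.45 to -1.41). Without Hspa1a and Hspa1b the log2 ratios of the sum were -0.75, -0.84 and -1.07, so the sum of the other 8 genes was lower by 2-fold or more in DN cells and by less than that in CD4 and CD8. The make-up of the sum shifted as well. Hspa1a and Hspa1b together held 30.2%, 27.4% and 27.2% of the UMIs of the 10 genes in control, and 8.56%, 4.73% and 6.43% in IR. Hspa8 held 21.4%, 23.9% and 23.2% in control and 41.6%, 42.3% and 37.8% in IR.

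Between the subsets of a kidney the levels of all genes but Bag3 lay within 2-fold of each other. In the control kidney 0 of the 10 genes passed 2-fold upwards in DN cells against CD4 and CD8 alike (0.829% of all genes tested did), and 1 passed it downwards, Bag3 (0.917% of all genes did). Bag3 in control DN cells was 3.47-fold below CD4 (log2 ratio -1.79, -1.87 to -1.72) and 2.94-fold below CD8 (-1.56, -1.63 to -1.48). Over the other 9 genes the highest control library was between 1.10-fold and 1.50-fold above the lowest. In the IR kidney the same comparison of DN cells gave 0 genes upwards (1.55% of all genes) and 0 downwards (1.57% of all genes), over 9 genes, since Bag3 was under 10 CPM in both IR DN and IR CD8 cells and could not be called. Bag3 was lower in IR DN than in IR CD4 cells, 3.02-fold with a log2 interval of -2.33 to -0.93, and its IR DN and IR CD8 levels had overlapping intervals.

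The order of subsets was not the same for all genes. Hspa1a, Hspa1b, Hsph1, Dnajb1 and Bag3 had their highest control level in CD4 cells, although for Hspa1b the intervals of CD4 (1773 to 1797 CPM) and CD8 (1759 to 1783 CPM) overlapped. Hspa8, Hsp90aa1, Hspd1 and Hspe1 had their highest control level in CD8 cells, and Dnaja1 had similar levels in DN and CD4 cells with CD8 below both. In IR kidneys the CD4 library stood apart for the inducible pair, with Hspa1a 1.87-fold and Hspa1b 1.70-fold above DN, and 1.86-fold and 1.88-fold above CD8. Hspa1a and Hspa1b did not differ beyond counting error between IR CD8 and IR DN cells. Hspe1 was highest in CD8 cells in both kidneys, 1.50-fold above CD4 in control and 1.80-fold above DN in IR.

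Per-cell counts show how the genes were spread over cells. Each cell was thinned to 500 UMIs, which every kept cell reached, so that depth was equal. A UMI of Hspa1a or Hspa1b was then found in 55.9% (54.9% to 56.9%), 57.0% (56.0% to 58.0%) and 50.3% (49.3% to 51.4%) of the control cells. In IR the shares were 7.88% (7.36% to 8.42%), 5.04% (4.51% to 5.60%) and 5.51% (4.83% to 6.25%). Without thinning they were 85.9%, 83.2% and 82.5% in control and 13.1%, 7.37% and 8.14% in IR. No cell type in these sorted libraries should lack heat shock genes, so no background share was available, and whether free RNA gave part of the low shares was not tested.

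For the single genes, thinned shares in DN cells were 23.8% in control and 2.11% in IR for Hspa1a, 41.3% and 4.13% for Hspa1b, 15.5% and 2.04% for Hsph1, and 1.52% and 0.172% for Bag3. Dnajb1 had a UMI in 19.0% of control and 15.8% of IR DN cells, and Hspa8 in 61.8% and 43.2%. At least 1 UMI of any of the 10 genes was found in 95.7%, 97.3% and 95.1% of control cells and in 82.5%, 84.1% and 74.3% of IR cells. The median sum over the 10 genes was 4, 5 and 4 of 500 UMIs per cell in control and 2, 2 and 1 in IR. The constitutive gene was thus still found in many cells of the IR libraries while the inducible pair was found in few.

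The inducible pair was unevenly spread over cells in both kidneys. If its UMIs had fallen evenly on all cells, 77.0%, 75.9% and 70.9% of control cells and 16.6%, 9.28% and 10.2% of IR cells would have held 1 or more, which is above the share found in all 6 libraries. For Hspd1 the share found (10.7%, 13.7% and 10.5% in control) lay within 0.3 percentage points of the even share (10.9%, 13.9% and 10.8%). Hspd1 had few UMIs per cell, where the 2 shares lie close in any case. Genes nearer the level of the pair also fell below the even share, by less than the pair. In control Hsp90aa1 was found in 49.6%, 51.8% and 47.0% of cells beside 53.9%, 55.8% and 51.8%. Hspa8 was found in 59.7%, 67.7% and 61.8% beside 63.3%, 70.2% and 64.9%. Cells with a UMI of the pair held on average 2.63, 2.49 and 2.46 such UMIs in control and 2.31, 1.93 and 1.95 in IR. Such a mean is taken over detected cells and cannot be below 1, so it does not tell fewer cells from less RNA per cell. The variance of the per-cell sum of the pair divided by its mean was 2.64, 2.57 and 2.63 in control and 4.41, 3.61 and 3.11 in IR, where an even spread gives 1. For the other 8 genes together this ratio was 1.61, 1.42 and 1.60 in control and 1.46, 1.31 and 1.36 in IR.

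**Figure D3:**
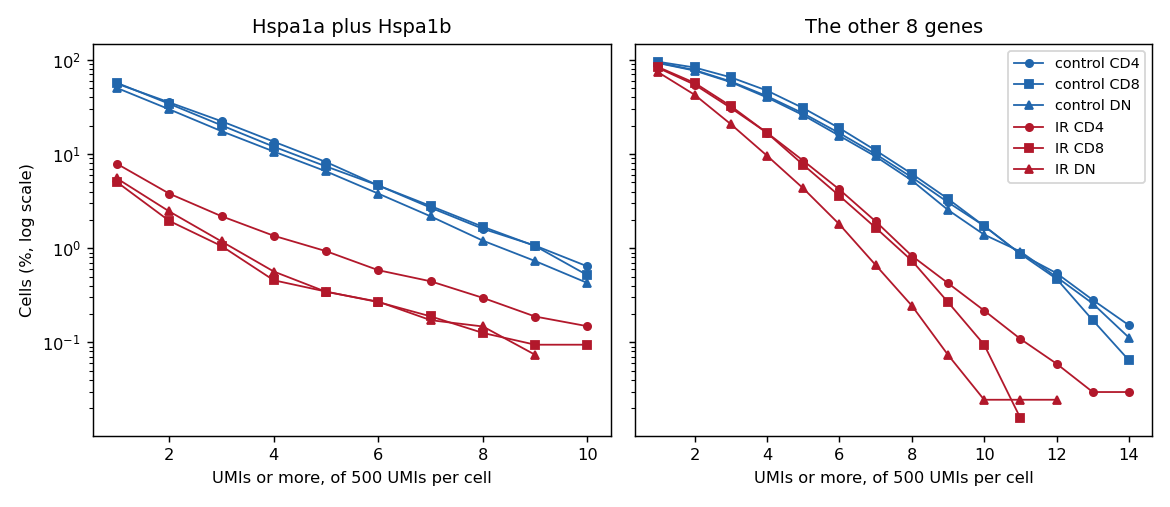
Share of cells (%, log axis) that held at least the number of UMIs on the x axis when each cell was thinned to 500 UMIs, for Hspa1a plus Hspa1b (left) and the other 8 genes (right), control in blue and IR in red, with circles for CD4, squares for CD8 and triangles for DN cells. On the left the red curves start at 5.04% to 7.88% and the blue ones at 50.3% to 57.0%. On the right the red curves start at 73.7% to 83.7% and the blue ones at 92.4% to 95.5%, and they part further along. At 5 or more UMIs the red ones there stand at 4.33% to 8.51% and the blue ones at 25.9% to 30.8%.

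A small number of IR cells carried several UMIs of the pair. Cells with 3 or more of 500 UMIs, a limit set after the values were seen, made up 22.3%, 20.2% and 17.5% of control cells and 2.19% (221 cells), 1.05% (67 cells) and 1.18% (48 cells) in IR. In IR these cells held 59.9%, 49.9% and 47.7% of all UMIs of the pair (68.2%, 64.2% and 63.4% in control), and the highest IR cell held 31 UMIs in CD4, 15 in CD8 and 9 in DN. The median depth of the IR cells with 3 or more was 2246, 1512 and 1462 UMIs, beside 2357, 1760 and 1449 UMIs for the rest of the same libraries. In these IR cells Dnajb1 was 3.84-fold, 3.62-fold and 3.41-fold above the rest, Hsp90aa1 1.95-fold, 2.95-fold and 2.38-fold and Hspe1 1.93-fold, 1.87-fold and 1.80-fold. In control cells with 3 or more UMIs Dnajb1 was 1.83-fold, 1.88-fold and 1.77-fold above the rest. Intervals of Hspd1 in the IR comparison included 1 in all 3 subsets.

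Detection of the pair was also set beside the other heat shock genes within each library. Levels of the other 8 genes were compared between cells with and without a UMI of the pair, with the pair left out of the totals. In control cells the ratio was highest for Dnajb1 (1.93, 1.84 and 1.80), Hsph1 (1.70, 1.41 and 1.90) and Bag3 (1.76, 1.70 and 1.95). Hsp90aa1 followed with 1.34, 1.29 and 1.45, and Hspa8 was lowest with 1.18, 1.09 and 1.15. The median ratio of all 3852 genes at 50 CPM or more in each control library, each taken at its smallest of the 3 ratios, was 0.925. By that smallest ratio Dnajb1 was rank 1, Hsph1 rank 9, Hsp90aa1 rank 15 and Hspa8 rank 128 of 3852, and Bag3 was under 50 CPM in control DN cells and was not ranked.

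In IR cells the same ratio was 2.60, 2.31 and 2.30 for Dnajb1 and 1.59, 1.38 and 1.62 for Hspa8. The interval of Dnajb1 in IR CD4 (2.31 to 2.90) lay above that in control CD4 (1.77 to 2.11), whereas the intervals of IR and control overlapped in CD8 (1.93 to 2.75 against 1.68 to 2.02) and DN cells (1.83 to 2.86 against 1.64 to 1.97). Hsph1 reached 4.12 (3.11 to 5.41) in IR CD4 and 2.30 (1.41 to 3.59) in IR CD8, and in IR DN cells it was 1.81 (0.756 to 3.76) from 8 UMIs. Hspd1 was 1.30 (1.00002 to 1.66) in IR CD4, 0.881 (0.553 to 1.34) in IR CD8 and 1.60 (0.960 to 2.54) in IR DN cells. Bag3 in IR rested on 5, 2 and 2 UMIs in cells with the pair, and its intervals included 1. Dnajb1, with a pooled level under 2-fold apart between kidneys, thus had a ratio of 1.80 or more in every library.

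**Figure D4:**
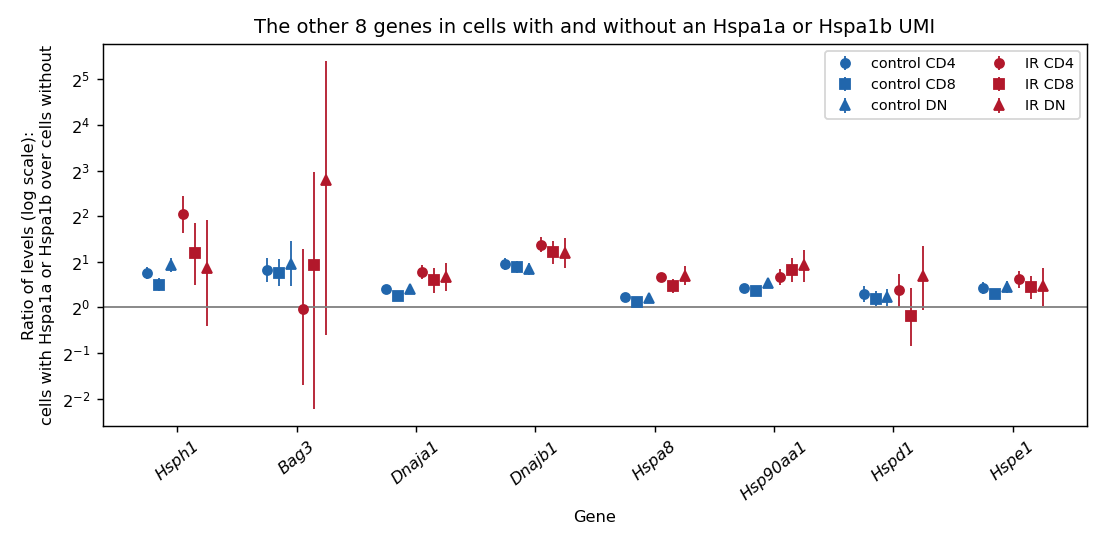
Ratio of the level of each of the other 8 genes in cells with a UMI of Hspa1a or Hspa1b over cells without one (log axis), in control (blue) and IR (red) libraries, with circles for CD4, squares for CD8 and triangles for DN cells and bars for exact 95% intervals. The ratios of Dnajb1 lie between 1.80 and 2.60, and the IR ratios of Bag3 rest on 5 UMIs or fewer in cells with the pair.

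The 10 genes with the highest smallest ratio in control were, in order, Dnajb1, Jun, Rhob, Dnaja4, Ccdc117, Fos, Klf2, Dnajb4, Hsph1 and Btg2. Among them Dnaja4 and Dnajb4 are further J-domain genes, and Jun, Fos and Btg2 are immediate early genes, which cells switch on within minutes of a stimulus. Cells with a Jun UMI held 1.67-fold, 1.55-fold and 1.84-fold the Hspa1a and Hspa1b level of cells without one in the control libraries, and 1.51-fold, 1.92-fold and 1.39-fold in IR. For Fos the folds were 1.50, 1.43 and 1.44 in control and 1.98, 1.58 and 1.42 in IR. Jun and Fos were ranked by these same control cells, so their control folds restate the ranking. For Dusp1, an immediate early gene outside the 10, the folds were 1.22, 1.30 and 1.20 in control. In IR they were 1.27, 1.25 and 0.913 (0.748 to 1.12). Across kidneys the immediate early genes differed among themselves. Of 13 immediate early genes 7, 6 and 6 were at least 2-fold higher in IR and 0 were lower. Of all genes tested 7.80%, 8.24% and 8.85% were higher and 15.0%, 17.2% and 10.6% lower. The summed level of the 13 genes was 10956, 9363 and 11052 CPM in control and 22434, 16449 and 23666 CPM in IR. Jun itself stood at 2001, 1756 and 2346 CPM in control and 1713, 1162 and 2369 CPM in IR, under 2-fold apart in each subset. Fos was also under 2-fold, at log2 ratios of 0.48, 0.36 and 0.59, Btg2 had ratios of -0.68, -0.81 and -0.57, and Fosb -0.64, -0.29 and 0.16. Of the others at 500 CPM or more, Dusp1 (1.93, 1.26 and 2.32), Junb (2.06, 1.70 and 2.01), Zfp36 (1.94, 1.77 and 1.76) and Ier2 (1.78, 1.61 and 1.67) were higher by over 2-fold in each subset, and Jund was under 2-fold at 0.90, 0.94 and 0.95.

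T cell states could be compared through marker genes within a library. Cells with a Mki67 or Top2a UMI, genes of dividing cells, held 0.681-fold, 0.874-fold and 0.660-fold the Hspa1a and Hspa1b level of other cells in the control libraries. Each interval lay below 1, with counting error alone in it and not the uneven spread of the pair over cells. In IR the ratio was 0.684 (0.364 to 1.17) in CD4, 2.06 (1.21 to 3.29) in CD8 and 4.49 (2.04 to 8.61) in DN cells, from 13, 18 and 9 UMIs. These UMIs lay in 104, 91 and 19 cells with the marker, and a single cell of these libraries held up to 31, 15 and 9 UMIs of the pair. The intervals take UMIs as independent, so they are too narrow for a pair spread unevenly over cells, and no difference is read from the IR values. In control CD4 cells with a UMI of Kcnq5, a potassium channel gene, Bag3 was 0.487-fold (0.391 to 0.601) the level of cells without one, while the intervals in control CD8 (0.526 to 1.43) and control DN cells (0.557 to 1.07) included 1.

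The rest of the chaperone network was counted in the same way. Of 101 further genes in 10 lists, 6 of 91 tested were at least 2-fold lower in IR CD4 cells (6.59%), 14 of 92 in CD8 (15.2%) and 8 of 91 in DN (8.79%), under the shares of 15.0%, 17.2% and 10.6% of all genes. Their median log2 ratio was -0.12, -0.35 and -0.26, and whether they differ from all genes was not tested. Those lower in all 3 subsets, named after their values were seen, were Dnaja4, Dnajb4 and Dnajc1 (J-domain proteins), Hspa4l (an HSP110 protein like Hsph1), Chordc1 (an HSP90 co-chaperone) and Zfand2a (an arsenite- and heat-inducible proteasome adaptor). Dnaja4 stood at 98.9, 86.6 and 103 CPM in control and 17.7, 20.8 and 27.4 CPM in IR, and Hspa4l at 62.8, 54.3 and 46.9 CPM in control and 14.8, 14.5 and 12.0 CPM in IR. At the other end of the J-domain list Dnajc19, of mitochondrial import, had log2 ratios of 1.02, 0.97 and 1.04, and Dnajc15 lay under 2-fold at 0.21, 0.39 and 0.52. By the ratio of IR over control in DN cells the highest of the HSP70 family was Hspa2, a gene of low level, at 5.84 CPM in control and 12.9 CPM in IR (log2 ratio 1.14). The list of other heat-inducible genes had 4 of 14, 6 of 15 and 5 of 14 tested genes lower and 1, 1 and 2 higher, where 7.80%, 8.24% and 8.85% of all genes were higher.

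Most genes of the other chaperone families lay within 2-fold between kidneys. Hsp90ab1, the constitutive cytosolic HSP90, stood at 2939, 3018 and 2587 CPM in control and 1546, 1738 and 1172 CPM in IR, at least 2-fold lower in DN cells alone. Stub1, a ubiquitin ligase that binds HSP70 and HSP90, was the highest of the HSP90 list in DN, at a log2 ratio of 0.34. The chaperonin TRiC, which folds actin and tubulin, had 0 of 8 genes lower in any subset, prefoldin 0 of 6, the other mitochondrial chaperones 0 of 7, and the BAG proteins and other exchange factors 0 of 8, with Bag4 as the lowest of these in DN at a log2 ratio of -0.81. Of all genes tested 15.0%, 17.2% and 10.6% were lower, so 0 in a list this short is near that share. The TRiC subunit Cct6a was higher in IR CD4 and CD8 cells, at 137, 187 and 122 CPM in control and 365, 469 and 101 CPM in IR. The lowest in DN cells of TRiC was Tcp1 (-0.86), of prefoldin Vbp1 (-0.63) and of the mitochondrial list the protease subunit Clpx (-0.77), while Grpel1, the exchange factor of mitochondrial HSP70, was the highest of that list at 0.65. Prefoldin subunit Pfdn5 was at least 2-fold higher in IR CD4 and DN cells and 1.91-fold higher in CD8, at 684, 793 and 615 CPM in control and 1638, 1518 and 1443 CPM in IR, and the exchange factor Sil1 of the endoplasmic reticulum stood at 36.8 (control) and 101 (IR) CPM in CD8 and at 45.7 and 132 CPM in DN cells, with a log2 ratio of -0.11 in CD4. The endoplasmic reticulum HSP70 Hspa5 stood at 658, 688 and 696 CPM in control and 607, 535 and 572 CPM in IR. Of the endoplasmic reticulum and unfolded protein response genes 0, 4 and 0 of 17 were lower. Hsp90b1, the HSP90 of that compartment, had log2 ratios of -0.81, -1.31 and -0.86, and the transcription factor Atf4 had 0.74, 0.65 and 0.91.

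The heat shock factors were measured too. Hsf1 stood at 38.4, 41.6 and 35.5 CPM in control and 29.0, 30.7 and 26.5 CPM in IR, log2 ratios of -0.41, -0.44 and -0.42. Hsf2 stood at 15.1, 15.2 and 13.6 CPM in control and 23.6, 35.3 and 31.4 CPM in IR, at least 2-fold higher in CD8 and DN. The polyubiquitin gene Ubb was at 3505, 3867 and 2938 CPM in control and 6466, 5940 and 5973 CPM in IR. Cryab, a small heat shock gene, held 2, 6 and 2 UMIs in the control libraries and 124, 120 and 147 UMIs (8.02, 18.5 and 33.2 CPM) in IR. Heat shock genes as a class did not share 1 direction.

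**Figure D5:**
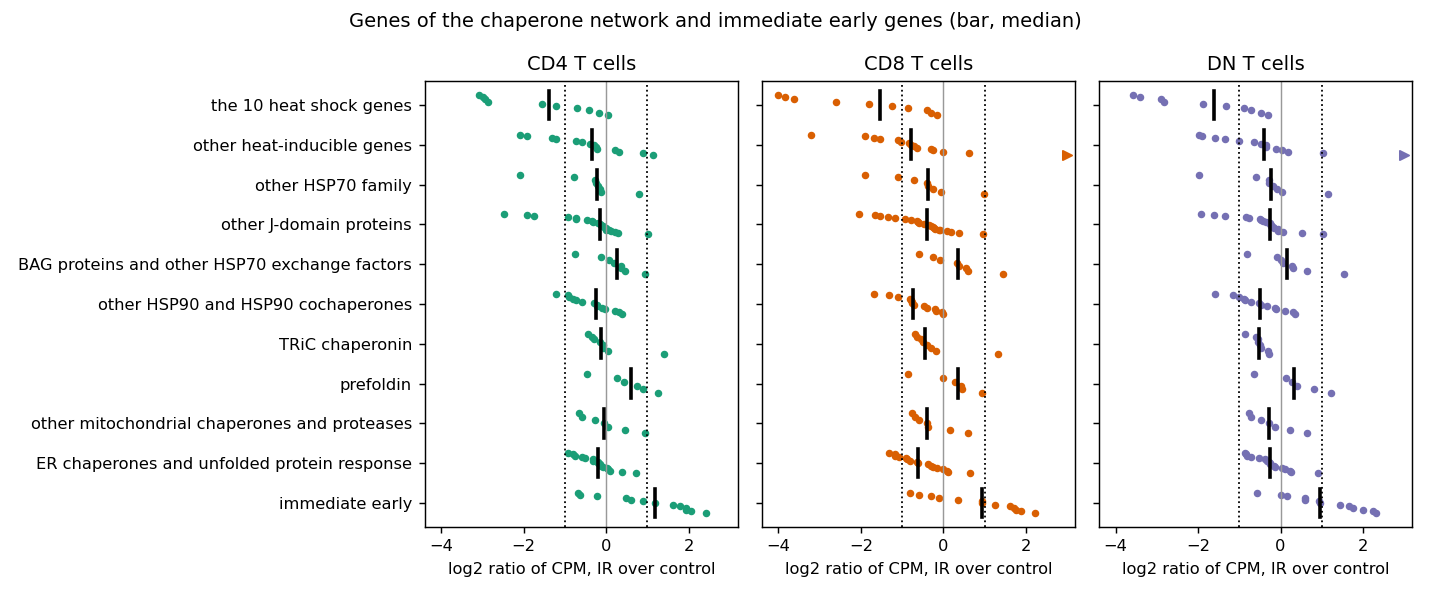
Log2 ratio of CPM, IR over control, of each tested gene in the 10 heat shock genes, 9 of the 10 lists of the chaperone network (the heat shock factors are not drawn) and the immediate early genes, with a black bar for the median of a list and dotted lines at 2-fold. Arrowheads at the right edge mark Cryab, whose ratio lies beyond the axis, and the medians of the 10 genes (-1.39, -1.53 and -1.61) lie to the left of those of the other lists.

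Markers of cell types other than T cells were summed by list. Summed tubule markers were at 1.91 to 3.03 CPM in control and 1.85 to 3.17 CPM in IR libraries, with 5 of 7 of them at 0 UMIs in IR DN cells, and erythroid markers, led by Hba-a1 and Hbb-bs, at 1.85 to 2.06 CPM in control and 21.0 to 28.3 CPM in IR. Summed B cell markers were at 1.35 to 10.3 CPM in control and 6.79 to 24.7 CPM in IR, with Ms4a1 at 0.198, 0.286 and 0.362 CPM in control and 3.82, 13.9 and 16.3 CPM in IR and Cd79b in CD8 cells at 9.47 and 9.57 CPM. Summed myeloid markers were at 108 to 117 and 133.6 to 167 CPM and endothelial markers at 45.5 to 127 and 43.9 to 101 CPM. The last 2 sums were nearly all 1 gene each, Cst3 at 88.7 to 99.1 CPM in control and 121 to 136 CPM in IR, and Pecam1 at 45.2 to 127 and 43.4 to 101 CPM, and each of their other markers was under 10 CPM in every library. Their part in the levels of the heat shock genes was not tested. Among the barcodes that failed the filter on such markers, 89 in control and 260 in IR, Hspa1a and Hspa1b summed to 2880, 1748 and 2483 CPM in control and 989, 546 and 513 CPM in IR.

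Profiles over the 6 libraries were compared among 5010 genes at 50 CPM or more in at least 1 library, with the 10 heat shock genes left out. The gene nearest to Hspa1a plus Hspa1b was Kcnq1ot1 (chr7:143203458-143296549), with a distance of 1.05 between centred log2 CPM, followed by Trerf1 (1.08), Cmss1 (1.28), Fam185a (1.43) and Gm42418 (1.50). Kcnq1ot1, a nuclear antisense RNA, stood at 137, 143 and 118 CPM in control and 19.7, 18.2 and 20.6 CPM in IR. Of the heat shock genes Hsph1 lay at 1.06, Bag3 at 1.33, Hsp90aa1 at 2.12 and the others at 2.70 to 4.08. These 6 libraries hold 3 of each condition, so a difference between conditions sets most of the distance. Genes that, like Hspa1a and Hspa1b, are coding and have no intron had a median log2 ratio of 0.38 (166 genes), 0.12 (168 genes) and 0.25 (169 genes). After centring on genes of like intronic length the same count of 6 of 10 heat shock genes stayed at least 2-fold lower in each subset. The share of all genes past that limit after centring is not given here.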

How the data were processed

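The matrices had been deposited by the authors as raw UMI counts per gene and barcode (10x 3' v3.1, Cell Ranger, mm10), without normalization. Per the file headers Cell Ranger 5.0.1 wrote the control and 6.0.1 the IR files, while the labels name 6.0.1. Preprocessing used default settings, per the study's methods, which do not speak of intronic reads or strand. Groups came from sample titles. Barcodes were kept with at least 500 features, at most 20% mitochondrial UMIs, outside the top 5% of UMIs (likely doublets, after the study's filters, with no doublet caller) and with T cell marker UMIs at or above those of myeloid, B cell, endothelial and tubule markers. The 104 mitochondrial, ribosomal protein and Malat1 features were left out of totals. Pooled libraries held 4421368 to 60756547 UMIs, and a count of 0 was set to 3 counts in ratios (0.0494 to 0.679 CPM). Poisson, conditional binomial (ratios) and Clopper-Pearson (shares) intervals are exact at 95%. There was 1 library per group and no test was run.

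The 10 genes, the gene lists and the rules were chosen with earlier results of these data known. Named were all 10 genes, of each list the extreme genes in DN and those at 500 CPM or more (for T cell markers only the lowest, and with 1 gene not reported here), the 5 nearest profiles (Euclidean) and the 10 genes most tied to Hspa1a and Hspa1b. Ddit3, on 2 rows, was left out. GENCODE M21 matched 32235 of 32285 features (99.8%), and promoters came from RefSeq (GRCm38.p6). Alternatives were TMM scaling, removed features kept, other cell filters, thinning (seed 1), a mean over cells, shared barcodes left out, other minimum CPM, Hspa1a and Hspa1b summed, and centring in 20 bins of intronic length. Calling rules were tested on simulated data. Python 3.11.15, numpy 2.4.6, scipy 1.17.1, pandas 2.3.3, matplotlib 3.10.9, R 4.3.3 and edgeR 4.0.16 (TMM only) were used.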

Additional observations from a re-analysis of the deposited data

How the results depend on the processing

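No paired analysis was run because the labels give no replicate numbers to pair by, each group had 1 library, and the subsets were not taken as replicates, so no library was left out either. The count of genes at least 2-fold lower in IR was 6 or 7 of 10 under the alternatives run, apart from 5 of 9 features in each subset with Hspa1a and Hspa1b summed as 1 and 5 in DN with a minimum of 50 CPM, which Bag3 did not reach. It became 7, 7 and 7 in CD4, CD8 and DN with the removed features kept, when Hspd1 passed 2-fold (log2 ratios -1.07, -1.26 and -1.07). The share of all genes at least 2-fold lower under each alternative is not given here. These counts therefore show how the 10 genes moved and not how they stood beside all genes. The log2 ratio of the sum over the 10 genes kept its sign and moved beyond its counting interval, in both directions, under several settings. In CD4 it was -1.15 with TMM scaling, -1.50 with the removed features kept, -1.12 with the top 5% of barcodes kept, -1.11 without cell filters, -1.16 as a mean over cells and -1.38 after centring by intronic length. In CD8 it was -1.18 with TMM scaling, -1.65 with the removed features kept, -1.20 with the top 5% kept, -1.20 without filters and -1.20 after centring. In DN it was -1.53, -1.60, -1.36 and -1.35 under the first 4 of these, -1.46 with cells thinned, -1.46 as a mean over cells and -1.54 after centring. Keeping the removed features moved the median of all genes by -0.35, -0.42 and -0.17. The sign of Hspe1 in CD4 turned to -0.32 with the removed features kept, a setting that changes only the totals and moved every gene in CD4 by the same -0.35. It also turned to -0.39 after centring, and the cause of that was not tested. The share of cells with a UMI of Hspa1a or Hspa1b differed with the number of UMIs per cell and the cells that reached it. In control (CD4, CD8, DN) it was 85.9%, 83.2% and 82.5% without thinning, 69.3%, 68.7% and 63.6% at 1000 retained UMIs and 66.2%, 64.9% and 59.5% at 1000 UMIs of all features. In IR it was 13.1%, 7.37% and 8.14%, then 11.2%, 8.26% and 9.60%, and 9.08%, 5.53% and 6.61%. At 1000 retained UMIs the IR shares rest on 8777 of 10104, 2674 of 6353 and 2114 of 4068 cells. Of 300 values of single genes under alternatives 208 stayed within counting error, 90 moved beyond it with the same sign and 2 turned.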
